A study of Homo sapiens with 8 samples.

Results

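The response of Empty cells to JG-98 is described here from 4 of the 8 libraries of the series. MCF-10A is a widely used line of human mammary epithelial cells that do not form tumours. It was grown in medium with horse serum, epidermal growth factor, hydrocortisone, insulin and cholera toxin. Untreated Empty cells (2 libraries) were compared with Empty cells given 1 µM JG-98 for 12 h (2 libraries). The labels describe the controls as untreated and name no vehicle, and they do not spell out what the Empty cells carry. No 12 h control is recorded, so drug, vehicle and time in culture cannot be told apart. The other 4 libraries are NeuT cells, a second MCF-10A line of the series, with and without the same treatment. All 17693 expressed genes, of 60617 in the count table, entered the test, and the 4 Empty libraries were chosen by their titles. No label says that replicates came from separate cultures, so p-values measure the spread between libraries of a group, which may be technical. In the main edgeR fit that spread was estimated from all 8 libraries, NeuT cells included.

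JG-98 is a small molecule that binds Hsp70 chaperones and weakens their contact with the cochaperone Bag3. Hsp70 proteins fold and sort damaged cytoplasmic proteins. Cells can answer a loss of folding capacity in several ways. One is the integrated stress response, in which kinases such as HRI phosphorylate the translation factor eIF2α, bulk translation slows, and the transcription factor ATF4 is made in larger amounts. ATF4 is known for raising genes of amino acid synthesis, amino acid transport and tRNA charging, and genes that feed back on the response, such as DDIT3 and TRIB3.

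Total counts were 55799562 and 55378816 in the untreated libraries and 37341458 and 56861971 in treated libraries 1 and 2. A count of 0 allows up to 3 counts, or 0.0803 CPM in the shallowest library before TMM scaling. CPM is a gene's count relative to the size of its library, with TMM factors for library composition in the levels below, and is not divided by gene length. In bulk RNA fewer cells of a type and less RNA per cell cannot be told apart. The 9 markers of basal breast epithelium summed to 24550 to 25260 CPM in untreated and 24150 to 24750 CPM in treated cells. Summed levels were 4157 to 4216 CPM untreated and 4253 to 4317 CPM treated for 6 epithelial markers, and 65.2 to 65.9 and 65.1 to 65.3 CPM for 5 luminal markers. Other classes summed to 9.12 and 8.53 to 9.82 CPM (7 fibroblast markers), 13.4 to 15.1 and 12.3 to 17.6 CPM (5 endothelial) and 6.66 to 7.38 and 5.33 to 6.38 CPM (6 blood cell markers, with CD3E at 0). KRT19, an epithelial keratin, was low in every library, at 4.25 and 4.58 CPM untreated and 3.41 and 4.42 CPM treated. So was TP63, a member of the basal list, at 2.70 and 2.79 CPM untreated and 3.65 and 3.46 CPM treated. The edgeR test called 0 of the markers tested.

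In Empty cells 46 genes rose and 14 fell with JG-98. A gene is called, and described as having risen or fallen, where the adjusted p of edgeR's quasi-likelihood test was under 0.05. The 60 calls are 0.339% of the genes tested, with 0.26% called higher and 0.0791% called lower. The genes that rose included regulators and metabolic enzymes linked to ATF4, a pair of chemokines, epithelial proteases and heme oxygenase. The genes that fell included transcripts assigned to nuclear copies of mitochondrial genes, the glucose-responsive pair TXNIP and ARRDC4, and single genes such as PLOD2, TGFBI and BNIP3. Of the 46 rises 42 were protein-coding genes, against 7 of the 14 falls, and 5 of the falls were mitochondrial pseudogenes. DESeq2 called 146 genes (0.825%, with 0.52% higher and 0.305% lower), and a fit of the 4 Empty libraries alone called 205 (1.22%, with 0.833% higher and 0.387% lower). With 1 Empty library left out, 9 (without treated library 1), 16 (without untreated 1), 17 (without untreated 2) or 37 (without treated 2) genes were called. PHGDH, GDF15, ADM2, TXNIP, ARRDC4, MTND2P28, MTND4P12 and MTCO3P12 were called in all 4 of these fits, and 31 of the 60 genes in none. Limma-voom called 39 of the 60. Among those it did not call were SARS1, PYCR1, GPT2, CXCL2, CXCL3, IL1RN, DUSP10, PRSS22, EIF2S2, MPDZ, YLPM1, BNIP3, LINC01559, ULBP1 and CLGN.

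Most changes were small. The median rise was 0.53 on the log2 scale, 22 rises were under 0.5, 17 lay between 0.5 and 1, and 7 were 1 or more. Falls had a median size of 0.69, with 5 under 0.5, 4 between 0.5 and 1, and 5 of 1 or more. The smallest called rise was 0.28 (EIF4EBP1) and the smallest called fall was 0.26 in size (TGFBI). Among the 9551 genes whose mean log2 CPM was 3 or more, the median size of the change was 0.0684, and 36 genes (0.377%) changed by over 0.5. Over all genes tested the median log2 change was -0.00334 and 49.1% of the changes lay above 0.

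**Figure D1:**
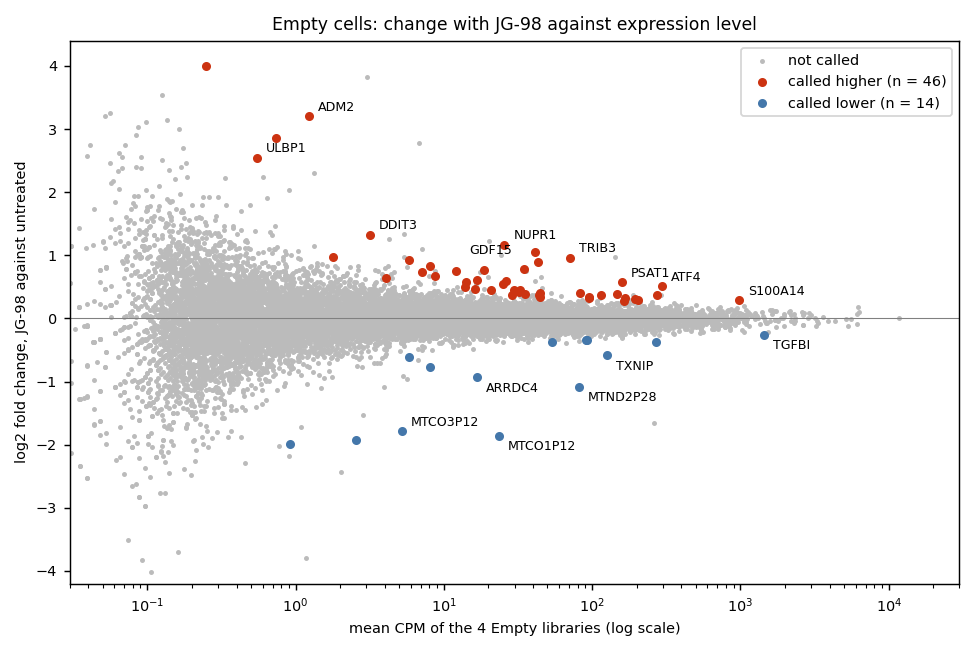
Log2 fold change with JG-98 in Empty cells (vertical axis) against the mean level over the 4 Empty libraries (horizontal axis, CPM, log scale), 1 point per gene tested, with the 46 called rises in red and the 14 called falls in blue. The cloud of genes not called narrows with the level and is centred near 0, and the largest called changes sit at low levels.

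The called changes were present in both treated libraries. Treated and untreated libraries did not overlap for any of the 60 called genes, but this was so for 43.1% of all genes tested. The median rise, against the untreated mean, was 0.55 in treated library 1 and 0.48 in treated library 2, and the median fall was -0.75 and -0.60. The rise was larger in treated library 1, the shallow one, for 38 of 46 genes, and the fall was larger there for 4 of 14, and the part of depth in this was not tested. Across the 9551 better expressed genes, the change from untreated 1 to treated 1 and that from untreated 2 to treated 2 had a correlation of 0.443. With the other pairing it was 0.396. These are descriptions across genes, which are not independent replicates.

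Replicates of one group differed by a median of 0.0537 (untreated) and 0.0783 (treated) on the log2 scale. The median change with the drug, 0.0684, compares groups of 2 libraries, not single libraries, so its size cannot be set directly beside these. Only 0.0628% of the 9551 genes differed by over 0.5 between untreated replicates and 0.188% between treated replicates. Among these 9551 genes, 4 differed by more than 1 between replicates of a group. SCRIB, a cell polarity gene, stood at 20.2 and 6.99 CPM in the untreated libraries, and PRPF8, a core splicing factor, at 31.9 and 12.2 CPM in the treated ones. The pseudogene FAM3C2P stood at 12.96 and 4.64 CPM untreated, and ENSG00000170089, another pseudogene, at 3.03 and 27.8 CPM untreated and 32.6 and 16.3 CPM treated. None of the 4 was called.

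**Figure D2:**
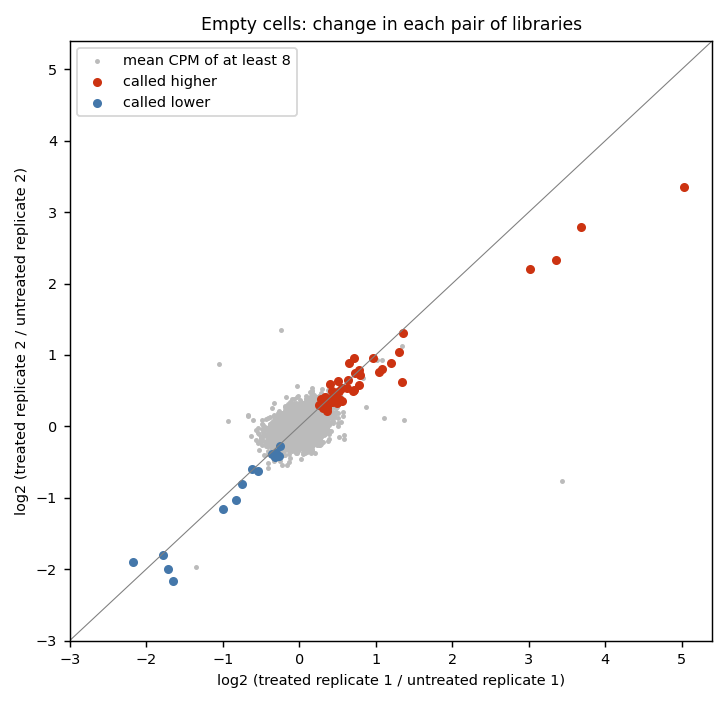
Log2 ratio of treated to untreated level for replicate 1 (horizontal axis) and replicate 2 (vertical axis), 1 point per gene with a mean of at least 8 CPM in grey and all called genes in red (rises) and blue (falls). Most called genes lie near the diagonal in both directions, and low-count calls such as DXO and ENSG00000228626 lie further from it. The grey cloud is centred near 0.

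Among the regulators and secreted factors of the stress response, 7 of 19 genes tested rose and 0 fell, with a median log2 change of 0.75. These were ATF4, DDIT3, TRIB3, NUPR1, JDP2, GDF15 and ADM2. ADM2, a peptide hormone of the calcitonin family, was barely detected in untreated cells, at 0.194 and 0.280 CPM, and stood at 2.49 and 1.94 CPM after JG-98. Its log2 change of 3.20 (SE 0.33) was the largest among calls averaging 50 counts or more (edgeR adjusted p = 9.98e-05). GDF15 (chromosome 19, 18374731 to 18389176), a circulating stress hormone, went from 26.8 and 26.5 CPM to 61.4 and 48.9 CPM. That is a 2.06-fold rise (log2 1.05, SE 0.096, edgeR adjusted p = 9.98e-05), and the treated libraries stood apart from each other more than the untreated ones.

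ATF4 itself (chromosome 22, 39519695 to 39522685) had 248.5 and 236.6 CPM untreated and 356.0 and 334.1 CPM treated, a rise of 1.42-fold (log2 0.51, SE 0.082, edgeR adjusted p = 0.0157). DDIT3, the pro-apoptotic factor CHOP, rose from 1.80 and 1.79 to 4.62 and 4.42 CPM (log2 1.33, SE 0.18, edgeR adjusted p = 0.00156). Other genes cover 39.6% of the DDIT3 exons, and without a stated use of strand their reads cannot be told apart. NUPR1, a small chromatin-associated stress protein, rose 2.25-fold from 15.5 and 15.9 to 38.2 and 32.6 CPM (log2 1.17, SE 0.15, edgeR adjusted p = 0.0101). TRIB3, a pseudokinase that restrains ATF4 and DDIT3, had 50.1 and 45.5 CPM untreated and 98.0 and 88.6 CPM treated (log2 0.96, SE 0.13, edgeR adjusted p = 0.0311). JDP2, a repressor that pairs with AP-1 and ATF proteins, rose from 9.21 and 8.62 to 16.04 and 14.13 CPM (log2 0.75, SE 0.11, edgeR adjusted p = 0.00694).

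Several stress genes with large changes missed the threshold. CHAC1, an enzyme that degrades glutathione, stood at 2.04 and 1.40 CPM untreated and 13.9 and 9.96 CPM treated, a log2 change of 2.77 (SE 0.45) with an edgeR adjusted p of 0.175. SESN2, an inhibitor of mTORC1, stood at 16.5 and 15.6 against 35.1 and 29.8 CPM (log2 1.01, SE 0.22, edgeR adjusted p = 0.233). The secreted glycoprotein STC2 stood at 99.5 and 93.9 against 200.6 and 177.9 CPM (log2 0.97, edgeR adjusted p = 0.0994). In a fit of the 4 Empty libraries alone, 13 of the 19 genes were called higher. There the adjusted p was 6.8e-06 for CHAC1, and 4.6e-06 for SESN2. FGF21, a metabolic hormone, had 0 counts in both untreated libraries and 6 and 13 counts in the treated ones, and was not called.

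**Figure D3:**
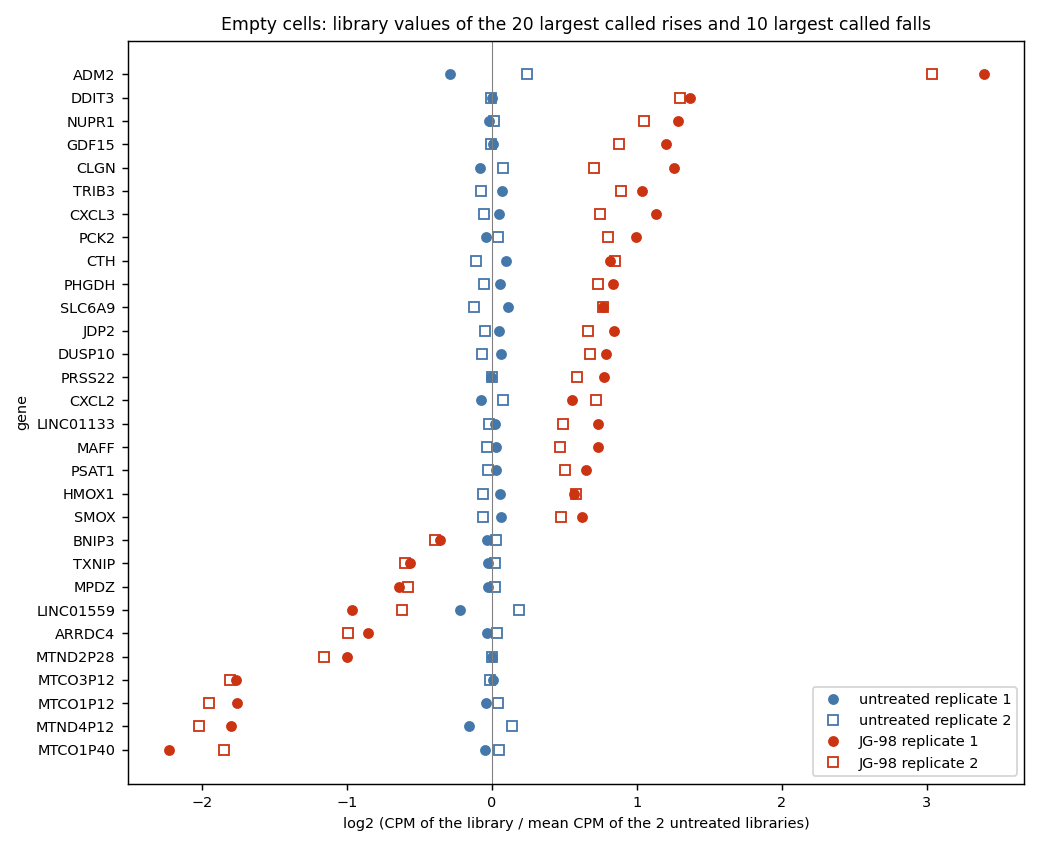
Level in each Empty library as the log2 ratio to the mean of the 2 untreated libraries (horizontal axis) for the 20 largest called rises and 10 largest called falls (vertical axis), with untreated libraries in blue, treated in red, replicate 1 filled and replicate 2 open. For every gene shown both treated points lie on one side of both untreated points, and ADM2 and LINC01559 have the widest untreated pairs.

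Amino acid synthesis was the metabolic list with the most calls. Of 21 listed genes 20 were tested, 6 rose and 0 fell, and the median log2 change was 0.20. PHGDH and PSAT1, the first enzymes of serine synthesis, had the smallest p-values, while PSPH, the last, was not called (edgeR adjusted p = 0.224). PHGDH (chromosome 1, 119648411 to 119744226), the first enzyme of serine synthesis, had 26.3 and 24.3 CPM untreated and 45.2 and 42.0 CPM treated. Its 1.72-fold rise (log2 0.78, SE 0.081) had an edgeR adjusted p of 9.98e-05. PSAT1 (chromosome 9, 78297125 to 78330093), the next enzyme, rose 1.49-fold from 130.3 and 125.4 to 200.5 and 181.7 CPM (log2 0.58, SE 0.072, edgeR adjusted p = 0.000914).

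MTHFD2, a mitochondrial enzyme of one-carbon metabolism, rose by 0.39 (SE 0.070, edgeR adjusted p = 0.0214) from 130.2 and 126.2 to 175.2 and 160.2 CPM. CTH (chromosome 1, 70411218 to 70439851), which makes cysteine from cystathionine, had 6.17 and 5.35 CPM untreated and 10.1 and 10.4 CPM treated (log2 0.83, SE 0.14, edgeR adjusted p = 0.0150). Enzymes of proline and alanine synthesis also rose. PYCR1, of proline synthesis, changed by 0.45 (SE 0.088, edgeR adjusted p = 0.0311), and GPT2, a mitochondrial alanine aminotransferase, by 0.40 (SE 0.081, edgeR adjusted p = 0.0482). GPT2 kept its call in 5 of the 9 alternatives that used all Empty libraries. Other genes cover 33.6% of the MTHFD2 exons and 29.7% of those of PYCR1. PCK2, mitochondrial PEP carboxykinase, is not in that list and rose 1.87-fold from 29.2 and 30.9 to 59.8 and 52.5 CPM (log2 0.90, SE 0.13, edgeR adjusted p = 0.0190). Few reads were assigned to ASNS, asparagine synthetase, at 0.194 and 0.333 CPM untreated and 1.21 and 0.818 CPM treated. It was not called (edgeR adjusted p = 0.0630). Few assigned reads need not mean low expression, since use of strand and counting of multiply matching reads are not given.

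Of 18 amino acid transporters tested, 1 rose and 0 fell (median log2 change 0.12). This was the glycine transporter SLC6A9, with 14.9 and 12.7 CPM untreated and 23.5 and 23.4 CPM treated (log2 0.77, SE 0.13, edgeR adjusted p = 0.0161). The cystine transporter SLC7A11 stood at 11.3 and 12.8 CPM untreated and 28.6 and 28.1 CPM treated, a log2 change of 1.23 that was not called (edgeR adjusted p = 0.142). SLC7A11 was called in the fit of the 4 Empty libraries (adjusted p = 3.96e-07), where 5 transporters were higher. Among 20 cytosolic tRNA synthetases 1 rose and 0 fell, and 15 lay above 0 (median 0.14). SARS1, seryl-tRNA synthetase, changed by 0.31 (SE 0.059, edgeR adjusted p = 0.0274). GARS1, at 258.7 and 246.5 against 351.4 and 302.5 CPM, had a larger change of 0.37 and an edgeR adjusted p of 0.0546.

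**Figure D4:**
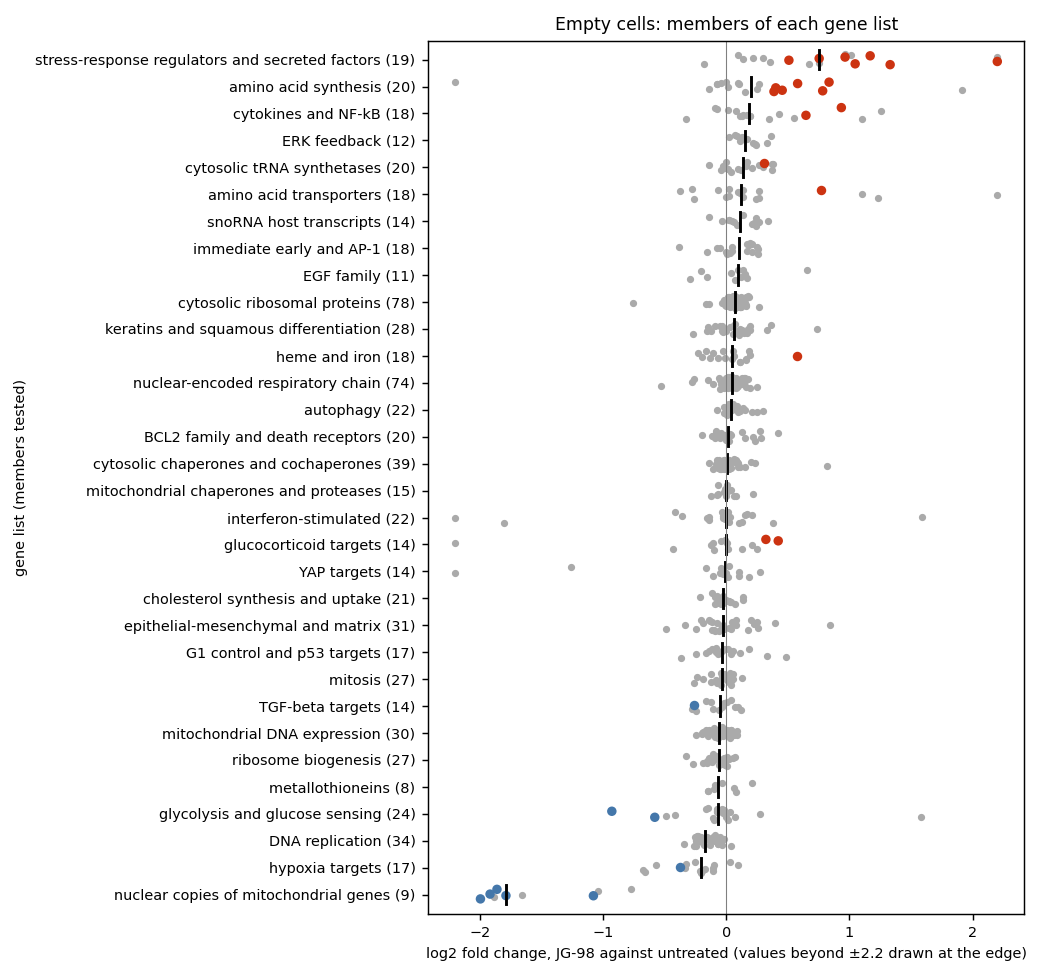
Log2 change with JG-98 in Empty cells (horizontal axis, values beyond 2.2 drawn at the edge) for the tested members of 32 gene lists (vertical axis), with called rises in red, called falls in blue, other members in grey and the median as a black bar. The stress regulators have the median furthest to the right, at 0.75, and the nuclear copies of mitochondrial genes that furthest to the left, at -1.79.

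TXNIP and ARRDC4 fell. Both are arrestin-family proteins that limit glucose uptake, and both are known targets of the glucose-sensing factor MondoA. TXNIP (chromosome 1, 145992435 to 145996600) had 149.4 and 154.5 CPM untreated and 102.8 and 100.4 CPM treated, 0.67 of the untreated level (log2 change -0.58, SE 0.055, edgeR adjusted p = 7.51e-05). ARRDC4 (chromosome 15, 97960703 to 97973833) went from 21.2 and 22.3 to 12.0 and 10.9 CPM, 0.53 of the untreated level (log2 change -0.93, SE 0.090, edgeR adjusted p = 7.51e-05). In both genes the replicates of a group lay close together and far from the other group. The related ARRDC3 changed by -0.02 and was not called. Of 24 genes of glycolysis and glucose sensing, TXNIP and ARRDC4 were the 2 that fell, 0 rose, and the median was -0.07.

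MondoA is known to bind a carbohydrate response element, a pair of E-box-like letters set 5 bases apart, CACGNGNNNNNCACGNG. On either strand this motif was in 20 of 35093 RefSeq promoters of 300 bases (0.057%), and among 40 called genes with a promoter in that table in TXNIP alone. The E-box CACGTG, which reads the same on both strands, was in 7.26% of promoters, and in 2 of the 7 falls (ARRDC4, BNIP3) and 2 of the 33 rises (ATF4, MAFF) with a promoter. TGATGCAA (or TTGCATCA), letters of the composite site bound by ATF4 with C/EBP proteins, was in 0.866% of promoters, in 1 of 33 rises (JDP2) and 0 of 7 falls. The percentages are per promoter sequence, while a called gene was counted where any of its promoters matched, so the units differ. The motifs were chosen after these values were seen, and a match is a description of letters, not a bound site. The sequences below show 1 called gene for each of the 3 motifs, from RefSeq (GRCh38.p14), with the match in capitals. In TXNIP the match lies 88 to 72 bases before the start. The sequences run from 250 bases before to 50 bases after the annotated start, for TXNIP (chr1:145996530-145996829, minus strand, 1 of 2 starts), ARRDC4 (chr15:97960453-97960752, plus strand) and JDP2 (chr14:75427772-75428071, plus strand, 1 of 3 starts).
TXNIP: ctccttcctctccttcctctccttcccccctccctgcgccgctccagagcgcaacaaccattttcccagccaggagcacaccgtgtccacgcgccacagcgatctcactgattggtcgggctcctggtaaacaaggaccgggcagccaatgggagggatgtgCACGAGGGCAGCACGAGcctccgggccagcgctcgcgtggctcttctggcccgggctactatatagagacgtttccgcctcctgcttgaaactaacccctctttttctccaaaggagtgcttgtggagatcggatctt
ARRDC4: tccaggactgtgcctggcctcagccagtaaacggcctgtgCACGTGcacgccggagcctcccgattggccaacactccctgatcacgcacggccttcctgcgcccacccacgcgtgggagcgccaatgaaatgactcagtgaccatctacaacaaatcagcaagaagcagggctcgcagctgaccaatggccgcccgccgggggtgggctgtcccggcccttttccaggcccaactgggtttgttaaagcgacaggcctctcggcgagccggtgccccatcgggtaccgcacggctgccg
JDP2: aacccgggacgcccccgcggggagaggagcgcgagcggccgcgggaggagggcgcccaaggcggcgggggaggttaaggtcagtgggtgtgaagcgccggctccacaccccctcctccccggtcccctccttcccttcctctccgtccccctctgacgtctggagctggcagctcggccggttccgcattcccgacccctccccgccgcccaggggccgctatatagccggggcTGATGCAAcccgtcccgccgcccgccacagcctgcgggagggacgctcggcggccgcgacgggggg

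Transcripts assigned to nuclear copies of mitochondrial genes made up the 5 largest falls. The 37 genes of the mitochondrial chromosome have 0 counts in the table, in all libraries together. Of 404 nuclear copies found by symbol, 9 were tested, all 9 had a change below 0 (median -1.79), and 5 fell. Their summed level was 529.7 and 591.5 CPM in untreated and 215.5 and 172.6 CPM in treated cells. These copies are nearly identical to mitochondrial DNA, and how reads matching several places were counted is not given in the sources used here, so their source cannot be told apart.

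MTND2P28 (chromosome 1, 629640 to 630683) was the most abundant of the 5, at 110.3 and 110.6 CPM untreated and 55.4 and 49.4 CPM treated (log2 change -1.08, SE 0.099, edgeR adjusted p = 0.000403). MTCO1P12 went from 35.7 and 37.8 to 10.8 and 9.48 CPM (log2 change -1.86, SE 0.18, edgeR adjusted p = 0.00709). MTCO3P12 had 8.19 and 8.06 CPM untreated and 2.39 and 2.32 CPM treated (log2 change -1.79, SE 0.15, edgeR adjusted p = 1.66e-05). MTND4P12 went from 3.61 and 4.43 to 1.15 and 0.989 CPM (log2 change -1.92), and MTCO1P40 from 1.43 and 1.53 to 0.315 and 0.409 CPM. MTATP6P1, more abundant than these at 367.2 and 425.1 against 143.5 and 108.2 CPM, changed by -1.66 and was not called (edgeR adjusted p = 0.0623). It was not called in the fit of the 4 Empty libraries either (adjusted p = 0.164), whereas DESeq2 gave it an adjusted p of 2.3e-13. Of 74 nuclear-encoded subunits of the respiratory chain 0 were called, with a median of 0.04 (0.10 in treated library 1 and 0.00 in treated library 2). Of 30 genes of mitochondrial DNA expression 0 were called, with a median of -0.06.

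A pair of neutrophil chemokines on chromosome 4, CXCL3 and CXCL2, rose. They were the 2 called genes of 18 tested in the cytokine and NF-kB list, 0 fell, and the median was 0.18. CXCL3 had 4.12 and 3.84 CPM untreated and 8.74 and 6.67 CPM treated (log2 0.93, SE 0.15, edgeR adjusted p = 0.0115). CXCL2 had 3.01 and 3.35 against 4.67 and 5.23 CPM (log2 0.65, SE 0.13, edgeR adjusted p = 0.0336). Limma-voom called neither (adjusted p = 0.109 for CXCL3 and 0.191 for CXCL2), and the fit of the 4 Empty libraries did not call CXCL2 (adjusted p = 0.0602). They are close paralogs, so reads could be split between them. IL1A, an alarm cytokine, stood at 2.54 and 2.49 against 6.69 and 5.44 CPM (log2 1.25) and was not called (edgeR adjusted p = 0.0630), and CXCL8 changed by 0.55 (edgeR adjusted p = 0.318). IL1RN, the natural antagonist of the interleukin-1 receptor, rose by 0.37 (SE 0.073, edgeR adjusted p = 0.0340), from 25.0 and 25.2 to 33.3 and 31.7 CPM.

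Further rises were in bZIP, redox and signalling genes. MAFF, a small partner of bZIP factors, rose 1.52-fold from 21.1 and 20.2 to 34.3 and 28.6 CPM (log2 0.60, SE 0.10, edgeR adjusted p = 0.0136). HMOX1, heme oxygenase, was the 1 gene of 18 tested in the heme and iron list that rose, from 11.7 and 10.8 to 16.7 and 16.8 CPM (log2 0.57, SE 0.098, edgeR adjusted p = 0.0134). SMOX, spermine oxidase, rose 1.46-fold from 21.2 and 19.4 to 31.2 and 28.3 CPM (log2 0.55, SE 0.087, edgeR adjusted p = 0.00862). DUSP10, a phosphatase of the stress kinases JNK and p38, had 5.58 and 5.10 CPM untreated and 9.21 and 8.56 CPM treated (log2 0.73, SE 0.12, edgeR adjusted p = 0.0112). ERRFI1, an inhibitor of the EGF receptor, and TSC22D3, a leucine zipper protein, are both known glucocorticoid targets and rose by 0.32 and 0.42. They were 2 of 14 such targets tested, whose median change was -0.00, and the medium of all groups held hydrocortisone. In the list of ERK feedback genes 0 of 12 were called, all 12 lay above 0 and the median was 0.15.

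Among the other rises were a pair of proteases and a calcium-binding protein. PRSS8 and PRSS22, serine proteases of epithelia, changed by 0.37 (SE 0.057, edgeR adjusted p = 0.00731) and 0.68 (SE 0.13, edgeR adjusted p = 0.0295). S100A14, a calcium-binding protein, was the most abundant gene that rose, from 893.7 and 874.2 to 1113 and 1048 CPM (log2 0.29, SE 0.054, edgeR adjusted p = 0.0233). Of 28 keratin and squamous genes tested 0 were called, with a median of 0.06. The long noncoding RNAs MIR205HG and LINC01133 rose by 0.41 and 0.61, LINC01133 from 13.4 and 13.0 to 21.9 and 18.5 CPM (edgeR adjusted p = 0.00707). Rises were also called for ACSS2 (acetyl-CoA synthesis), RBCK1 (part of the linear ubiquitin ligase), ROBO3 (an axon guidance receptor), PGPEP1 (a peptidase), LARP6 (an RNA-binding protein) and UBALD2, between 0.34 and 0.49. LINC01559, another noncoding RNA, fell from 8.72 and 11.6 to 5.20 and 6.58 CPM (log2 change -0.77, SE 0.14, edgeR adjusted p = 0.0253).

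Called genes linked to translation included EIF4EBP1, EIF2S2 and GTPBP2. EIF4EBP1, which holds back cap-dependent translation, and EIF2S2, the beta subunit of eIF2, rose by 0.28 and 0.29, the smallest called rises (edgeR adjusted p = 0.0258 and 0.0388). Of 78 cytosolic ribosomal protein genes tested 0 were called, 69 lay above 0 and the median was 0.07, with 0.11 in treated library 1 and 0.02 in treated library 2. GTPBP2, a GTPase of ribosome rescue, rose from 30.2 and 30.7 to 39.7 and 39.9 CPM (log2 0.39, edgeR adjusted p = 0.0219). The pseudogene RPL10P16, whose reads could be shared with RPL10, rose by 0.45. UPP1, uridine phosphorylase, rose from 242.6 and 236.8 to 318.1 and 299.7 CPM (log2 0.37, SE 0.061, edgeR adjusted p = 0.0115). Of 41 listed cytosolic chaperone and cochaperone genes 39 were tested, 0 were called and the median was 0.00. The inducible Hsp70 genes HSPA1A and HSPA1B are not among these 39, so the list says nothing about them. HSPA8, the constitutive Hsp70, stood at 3436 and 3372 CPM untreated and 3244 and 3205 CPM treated.

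Beside TXNIP and ARRDC4, 5 protein-coding genes fell, by 0.26 to 0.61 on the log2 scale. PLOD2 (chromosome 3, 146069440 to 146163653), a collagen lysyl hydroxylase, had 297.3 and 307.4 CPM untreated and 233.2 and 235.2 CPM treated (log2 change -0.37, SE 0.057, edgeR adjusted p = 0.00731). TGFBI (chromosome 5, 136028988 to 136063818), a secreted adhesion protein, was the most abundant, at 1581 and 1556 CPM untreated and 1333 and 1290 CPM treated (log2 change -0.26, SE 0.050, edgeR adjusted p = 0.0295). It was the 1 of 14 TGF-beta targets tested that was called (median -0.05). BNIP3 (chromosome 10, 131966455 to 131982013), a mitochondrial protein of hypoxia and mitophagy, had 59.4 and 62.1 against 47.5 and 46.3 CPM (log2 change -0.37, SE 0.076, edgeR adjusted p = 0.0468). In the hypoxia list 1 of 17 genes fell, 0 rose, 15 lay below 0 and the median was -0.21. The BNIP3 call was lost with total-count scaling (adjusted p = 0.0665), without robust estimation (0.0743), in limma-voom (0.124) and with any 1 Empty library left out (0.222 to 0.523). MPDZ, a tight-junction scaffold, fell by 0.61, YLPM1, a nuclear RNA-associated protein, by 0.34, and the unnamed gene ENSG00000279806 by 0.34.

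No DNA replication gene passed the test, but nearly all had values below 0. Of 34 tested, 33 lay below 0, the median was -0.17 and 0 were called. Treated and untreated libraries did not overlap, with treated lower, for 30 of the 34, against 22.2% of all genes tested. The median was -0.16 in treated library 1 and -0.15 in treated library 2. MCM2 and MCM6, subunits of the replicative helicase, had the smallest p-values. MCM2 stood at 140.6 and 134.4 CPM untreated and 112.0 and 119.3 CPM treated (log2 change -0.25, edgeR adjusted p = 0.0998), and MCM6 changed by -0.25 (edgeR adjusted p = 0.138). In the fit of the 4 Empty libraries, 8 of the 34 were called lower. Of 27 mitotic genes 17 lay below 0, the median was -0.04 and 0 were called. The lists of cholesterol synthesis, G1 control and p53 targets, the BCL2 family, YAP targets, interferon-stimulated genes and metallothioneins had 0 calls each and medians between -0.07 and 0.01. Lists of epithelial-mesenchymal and matrix genes (31 tested), immediate early genes, the EGF family, ribosome biogenesis, snoRNA hosts, mitochondrial chaperones and autophagy also had 0 calls each, with medians between -0.06 and 0.11.

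Calls at low counts rest on few reads. ULBP1, a ligand of the NKG2D receptor of natural killer cells, had 0.123 and 0.193 CPM untreated and 0.997 and 0.887 CPM treated (log2 2.55, SE 0.38, edgeR adjusted p = 0.00694). DXO, a decapping enzyme, had 0.159 and 0.193 against 1.63 and 0.972 CPM (log2 2.85, SE 0.48, edgeR adjusted p = 0.0129). Other genes cover 26.0% of the DXO exons, and its adjusted p in the authors' deposited table was 0.676. The pseudogene ENSG00000228626 had a mean of 12 counts. CLGN, a testis-type chaperone related to calnexin, had 1.13 and 1.26 against 2.86 and 1.94 CPM (log2 0.97, SE 0.19, edgeR adjusted p = 0.0409), with the treated replicates apart. CLGN was not called in the fit of the 4 Empty libraries (adjusted p = 0.0679).

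The same contrast in NeuT cells, with 2 libraries a group, called 533 of 17693 genes (3.01%), 355 higher (2.01%) and 178 lower (1.01%). Of the 60 genes called in Empty cells 45 were also called in NeuT cells and 15 were not. Of the 46 rises 36 rose in NeuT too, with a median NeuT change of 0.59 over the 46. Of the 14 falls 8 fell in NeuT too. The 15 genes not called there were the rises EIF2S2, S100A14, ACSS2, ROBO3, IL1RN, RPL10P16, PGPEP1, CXCL2, CXCL3 and DXO, and the falls MPDZ, YLPM1, TGFBI, LINC01559 and ENSG00000279806. For none of these 15 was the difference between the lines called. CXCL3 changed by 0.93 in Empty and 0.29 in NeuT, a difference of -0.64 with an edgeR adjusted p of 0.490. MPDZ changed by -0.61 and 0.01, a difference of 0.62 with an edgeR adjusted p of 0.349.

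The test of the difference between lines called 1 of 17693 genes (0.00565%), TXNIP, while 1378 had an unadjusted p under 0.05 and DESeq2 called 19. In NeuT cells TXNIP had 432.1 and 415.4 CPM untreated and 478.3 and 508.3 CPM treated, a rise of 0.22 (SE 0.053, edgeR adjusted p = 0.0316) where Empty cells had a fall of 0.58. Both untreated NeuT libraries lay above both untreated Empty ones. For ARRDC4 the NeuT change was -0.48 and the difference between lines was 0.45 (edgeR adjusted p = 0.448). ATF4 changed by 0.51 in Empty and 1.34 in NeuT, a difference of 0.83 with an edgeR adjusted p of 0.0579.

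**Figure D5:**
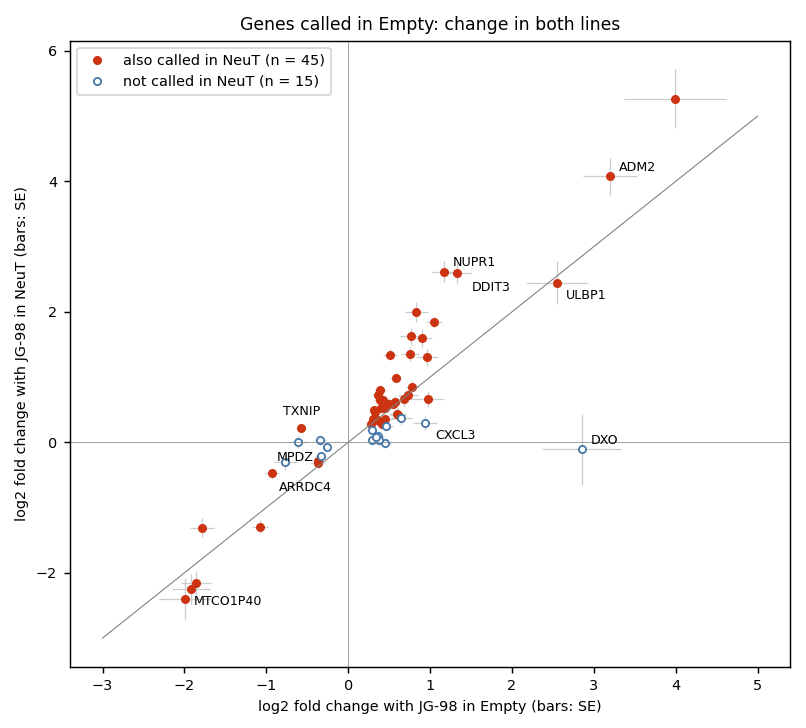
Log2 change with JG-98 in NeuT cells (vertical axis) against that in Empty cells (horizontal axis) for the 60 genes called in Empty cells, with bars for the SE, filled red points for the 45 genes also called in NeuT, open blue points for the 15 that were not, and a line of equal change. TXNIP lies left of 0 and above 0, at -0.58 in Empty and 0.22 in NeuT.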

How the data were processed

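Poly(A) RNA of 8 libraries was sequenced. The authors deposited raw counts of all genes in 1 table and, per line, a table of their own comparison with log2 fold changes, mean log2 expression, p-values and a test score, per the file headers. Per the submitters' processing notes, the tools included Trim Galore 0.5.0, FastQC 0.11.7, HISAT2 2.1.0, SAMtools 1.9, featureCounts 1.6.3 and limma, with build GRCh38 (hg38). Annotation release, use of strand and counting of multiply matching reads are not given in the sources used here.

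Samples were grouped by title. The number of count columns matched to no sample was 0. Symbols came from a gene name table, which held 60261 of 60617 identifiers. Coordinates are those of the count table. Counts were analysed with edgeR 4.0.16 (R 4.3.3): filterByExpr (minimum count 10, total 15), TMM scaling, 1 robust quasi-likelihood fit of all 8 libraries with a coefficient per group, and Benjamini-Hochberg adjustment over the 17693 genes tested. The SE is the size of the log2 change divided by the square root of F. Scripts were tested on simulated data. Floors cover counting error only, since PCR copies were not marked by molecular identifiers.

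Named genes were called genes with a symbol, a mean of at least 50 counts and no overlap between groups (the 20 largest rises and 10 largest falls), up to 4 called members of each of 32 gene lists or, where none was called, the 2 with the smallest p, called interaction genes, and cell type markers. Other genes named, among them CHAC1, SESN2, SLC7A11, FGF21, HSPA8, MTATP6P1, ARRDC3, the low-count calls, the remaining called genes and those whose replicates differed, were chosen after their values were seen. The members and lists were chosen with earlier results of these data known. Alternatives were median-of-ratios and total-count scaling, no filter, DESeq2 1.42.0, a minimum of 10 counts in each library, limma-voom 3.58.1, no robust estimation, a replicate block, a fit of the 4 Empty libraries, and leaving out each Empty library.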

Additional observations from a re-analysis of the deposited data

Results flagged for a closer look

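The change of TXNIP with JG-98 differed between the lines, by a log2 difference (NeuT change minus Empty change) of 0.80 (SE 0.076, edgeR adjusted p = 0.000183). TXNIP fell in both treated Empty libraries, from 149.4 and 154.5 to 102.8 and 100.4 CPM, and rose in both treated NeuT libraries, from 432.1 and 415.4 to 478.3 and 508.3 CPM. The difference stayed called when any 1 Empty library was left out, with values of 0.777 to 0.824.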

How the results depend on the processing

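The count of 60 called genes rested on the processing. It was 282 (162 higher, 120 lower) with no filter on low counts, 146 (92 higher, 54 lower) with DESeq2 and 205 (140 higher, 65 lower) in the fit of the 4 Empty libraries, which held 58 of the 60. Leaving out 1 Empty library gave 9 to 37 calls (9 without treated 1, 16 without control 1, 17 without control 2, 37 without treated 2), with 3 to 28 higher and 6 to 11 lower. Such fits have fewer libraries, and the lone library of a group is assumed to vary like the others. The 8 genes called in all 4 of them were PHGDH, GDF15, ADM2, TXNIP, ARRDC4, MTND2P28, MTND4P12 and MTCO3P12. The single interaction call became 2 with total counts, 138 with no filter, 19 with DESeq2, 3 without robust estimation and 1 to 2 with a library left out. Other causes were not tested. None of the 60 called genes changed direction under any of these alternatives, while some list medians near 0, such as that of the cytosolic chaperones, changed sign with a library left out. Limma-voom gave 44 calls, of which 39 were among the 60. With the replicate number as a block, edgeR called 66 genes (48 higher, 18 lower), 59 of them among the 60, and TRIB3 was lost (adjusted p = 0.110). The deviations of same-numbered untreated and treated Empty libraries had a correlation of 0.0640. Over the pairs of groups it ran from -0.101 (untreated and treated NeuT) to 0.244 (treated Empty and treated NeuT). It was not above 0.1 in every pair, so the libraries were treated as unpaired.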

Other observations

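The fit of the 4 Empty libraries alone called 147 genes that the fit of all 8 libraries did not, 96 higher and 51 lower. Of these, 77 were also called by DESeq2, and 69 were called in NeuT cells in the same direction. The lower genes included parts of the DNA replication machinery (MCM2, MCM3, MCM4, MCM6, MCM10, ORC1, PCNA and RRM2). Among the higher genes were CHAC1, SESN2, SLC7A11, SLC1A4, AARS1, GARS1, CARS1 and IL1A. SLC1A4, a neutral amino acid transporter, stood at 5.04 and 4.07 CPM untreated and 10.2 and 9.31 CPM treated. AARS1, alanyl-tRNA synthetase, stood at 237.6 and 235.6 against 318.1 and 294.1 CPM. These genes were picked after their values were seen.

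The authors' deposited table for Empty cells holds 48 genes with an adjusted p under 0.05, and 41 of them are among the 60 called here. Over 17609 genes in both, its log2 fold changes and those computed here had a correlation across genes of 0.860.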
